A study of Arabidopsis thaliana with 4 samples.

Results

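The introns described here are those whose last exon nucleotide before the 5′ splice site (5′ss), position −1, was highly reactive to a SHAPE reagent both in deproteinized RNA and in living Arabidopsis seedlings. They were selected on the measured values themselves: an intron had to be listed in both conditions and had to have a SHAPE reactivity score of at least 0.8 at −1 in each. Of 15678 introns listed in both conditions, 3732 met the rule, which is 23.8%, and they are called the members below. They are set against the other 11946 shared introns. These include 807 introns with no value at −1 in 1 or both conditions, which could not meet the rule. The shares of members below count them as non-members unless a value is required. Because −1 chose them, its values are given as a description and nothing is concluded from them.

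In SHAPE, the reagent NAI acylates the 2′ hydroxyl of flexible nucleotides of an RNA, and reverse transcription then stops one nucleotide before the adduct, so that a high reactivity is read as an unpaired or flexible nucleotide. Nuclear RNA of 5-day-old Arabidopsis thaliana seedlings of the accession Col-0 was profiled in this way in Nuc-SHAPE-Structure-Seq libraries. In the deproteinized condition, proteins were extracted with phenol and chloroform from the lysate of isolated nuclei before the RNA was modified, and in the in vivo condition the intact seedlings were modified. Both were treated with 100 mM NAI for 15 min at 22 °C, and each had a control library without NAI, (−)SHAPE. No genotype or treatment other than NAI and the removal of proteins differed between the groups. Each condition came as 1 merged reactivity profile per intron, so no spread between plants or libraries could be measured, and no test across samples was possible. Whole seedlings were used, so each profile averages over all cell types, and fewer cells of a type and less RNA per cell cannot be told apart.

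The 5′ss is first recognised by U1 snRNA, which pairs with the last exon nucleotides and the first intron nucleotides. Later in splicing the intron start pairs with U6 snRNA, and the branch point adenosine near the 3′ end of the intron, bulged out of its pairing with U2 snRNA, attacks the 5′ss to form the lariat. A small minor class of introns, often starting with AUAUCC or GUAUCC, is recognised by U11 and U12 snRNAs instead. Position −1 is most often a G and position −2 most often an A.

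Sequences from −10 to +20 of the 5′ss are given from RefSeq's TAIR10.1 assembly, with the U1 pairing region from −3 to +6 in capitals. The first set shows the extreme form of the pattern, with −1 and −2 at a score of 1 in both conditions and the lowest reactivity in the flanks, 1 intron per gene.
GRF6: cgatatgCAGGTATTCacatctctttatgc
UBQ10: ctgcgtgGAGGTATGCagatcttcgtgaag
AAE3: tggggaaGAGGTAAACaaaacctgtgctta
ATCS: cccggaaGAGGTACTGtataactctctgta
FSD1: attcgcaCTGGTACTTtcttatgataaaga
AT2G03690: agaaggaAGAGTACGTttttcaaatcactc
RPT2: tcttcatAAGGTAAGCaacaactcttaatt
AT1G04970: atctgttCAGGTAATTatgatcaattttac
The second set shows the opposite case at −2, with −1 at 1 and −2 at 0 in both conditions.
IAA16: caccagcCAAGTAAGAaactgaatttcaat
ATG8F: acaagaaAAAGTAAGCatataaatggcatc
AT4G15610: cggctctTATGTAAGTtcatcctaataatt
The third set shows members that start with ATATCC, the sequence class with the highest share of members among those counted here. These were chosen after their values were seen.
AT1G73350: tgcctttAAAATATCCtttcttaaatgctc
AT1G24050: gtcttttTTGATATCCttaatttctttaat
AT1G80500: accgcagGCCATATCCtttttcgttagacc
EMB2799: agggcttTACATATCCttttggatttcgat

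All of these stretches lie across the exon-intron border of an annotated intron. In the first set GRF6 is at chr5:3284646-3284675 (minus strand), UBQ10 at chr4:2719459-2719488 (plus), AAE3 at chr3:18159358-18159387 (minus) and ATCS at chr2:18317471-18317500 (plus), all in the coding sequence. AT2G03690 is at chr2:1122806-1122835 (minus), also in the coding sequence. FSD1 at chr4:12886422-12886451 (minus), RPT2 at chr2:13005330-13005359 (minus) and AT1G04970 at chr1:1411614-1411643 (plus) are in the 5′ untranslated region. The other introns are all in coding sequence. IAA16 is at chr3:1290193-1290222 (minus), ATG8F at chr4:9307324-9307353 (minus) and AT4G15610 at chr4:8909385-8909414 (plus). AT1G73350 is at chr1:27576219-27576248 (minus), AT1G24050 at chr1:8507201-8507230 (plus), AT1G80500 at chr1:30272016-30272045 (plus) and EMB2799 at chr2:16310708-16310737 (minus).

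A value at −1 in both conditions was given for 14871 of the shared introns. Of these, 41.8% had at least 0.8 in deproteinized RNA and 36.8% in vivo, and 25.1% had it in both. A further 2483 introns reached 0.8 only in deproteinized RNA, 1735 only in vivo, and 6921 in neither. Of introns at or above 0.8 in deproteinized RNA, 60.05% were also at or above 0.8 in vivo, against 20.0% of those below it. The conditions went together at other positions too: at −2 these shares were 27.7% and 8.70%, and over the 38 other positions from −20 to +20 their medians were 22.1% and 4.98%. At those 38 positions between 2.62% and 7.80% of introns passed 0.8 in deproteinized RNA and between 2.70% and 7.07% in vivo, and between 0.538% and 1.82% passed in both. At −2, 4.05% passed in both.

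**Figure D1:**
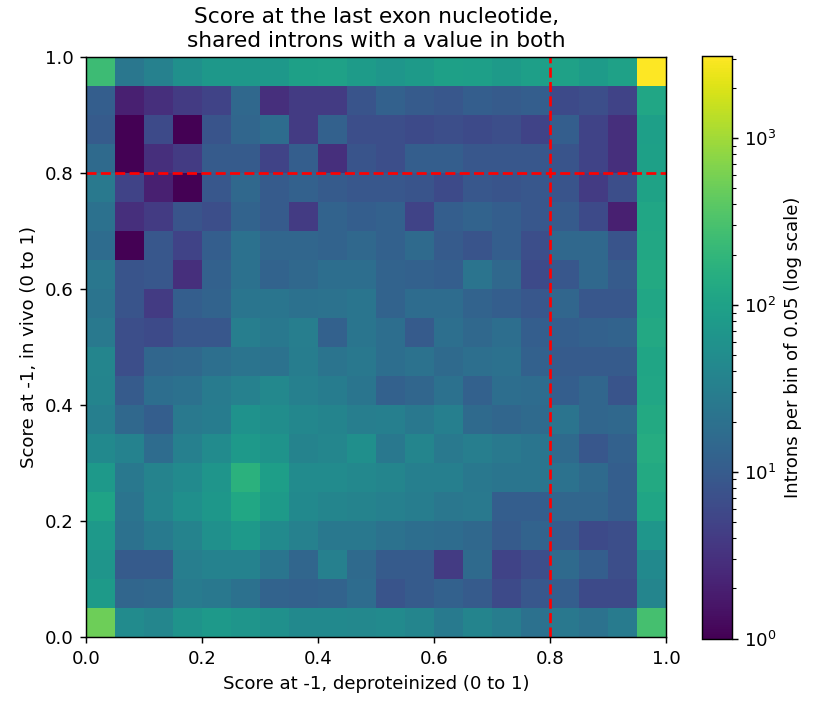
Score at −1 in deproteinized RNA (horizontal) and in vivo (vertical) for the 14871 shared introns with both values, as introns per square of 0.05 on a log colour scale; dashed lines mark 0.8. The members fill the upper right corner, where 2906 introns lie at exactly 1 in both.

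Most members were at the top of the scale. A score of 1 in both conditions was given for 2906 members, 77.9%. Another 385 were at 1 in deproteinized RNA only, 342 in vivo only, and 99 were below 1 in both. The mean at −1 among members was 0.988 ± 0.038 in deproteinized RNA and 0.988 ± 0.038 in vivo (SD over 3732 introns). Scores were scaled within each intron, so 1 is the highest level of that intron and not an absolute reactivity. Several nucleotides of a row share this level: on average 5.61% of a member's values were at 1 in deproteinized RNA and 6.12% in vivo. A score of 1 therefore does not make −1 the single most reactive nucleotide. Across members r between the 2 conditions was 0.09 over 3732 introns. The cut at 0.8 on both axes and the many scores of 1 leave little range, so this value does not say how the conditions relate. Over all 14871 shared introns with both values r was 0.46.

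No gap in the values marked 0.8. Just inside it lay intron 7 of SNG1, for an enzyme of sinapate esters, with 0.801 in deproteinized RNA and 0.977 in vivo, intron 8 of CUE1, for a plastid phosphate translocator, with 0.805 and 0.801, and intron 6 of 2-Cys Prx B, for a plastid peroxiredoxin, with 0.801 and 0.828, in the same order. Just outside it lay AT1G14670 intron 4, with 0.7999 in deproteinized RNA and 1 in vivo, and AT3G23300 intron 1, also with 0.7999 and 1. AT2G41250 intron 2 missed it in vivo, with 1 in deproteinized RNA and 0.7996 in vivo. Among members, 5.98% had between 0.8 and 0.9 in deproteinized RNA and 5.98% in vivo. The size of the class depends on the cut: 4950 introns met the rule at 0.6 and 2906 at 1.

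The members covered 3214 distinct 5′ss in 2043 genes, out of 13850 5′ss in 4317 genes. Introns that share a 5′ss share exon nucleotides and reads, so they are not independent: 957 members, 25.6%, lay on a 5′ss with more than 1 member. Where a 5′ss had several listed introns and at least 1 member, all of its introns were members in 439 of 467 cases. All but 1 of the members were nuclear, and 3726 could be given a sequence. An annotated intron matched 89.7% of members (95% Wilson interval 88.7 to 90.6%) and 81.1% of the other shared introns (80.4 to 81.8%). Here and below, such intervals cover counting error over introns only.

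The introns of the members were longer, with a median length of 149.5 nt (quartiles 98 and 308 nt), against 99 nt (85 and 177 nt) in the other shared introns. Of the 1753 introns under 80 nt, 7.93% were members (6.75 to 9.29%). The share was 17.99% (17.1 to 18.9%) at 80 to under 120 nt and 33.2% (31.6 to 34.9%) at 120 to under 250 nt. It was 37.0% (35.002 to 39.02%) at 250 to under 500 nt and 34.1% (31.4 to 36.9%) at 500 nt or more. The low share of short introns was present in each condition by itself: under 80 nt, 24.9% had at least 0.8 at −1 in deproteinized RNA and 17.4% in vivo, against 54.5% and 51.6% at 250 to under 500 nt. Among introns with a G at −1 the share still ran between 7.72% under 80 nt and 38.9% at 250 to under 500 nt. When each 5′ss was counted once, through its first listed intron, the share ran between 7.27% and 36.2%. Scores are scaled within a row of the intron and 50 exon nucleotides on each side, so length also changes what −1 is scaled against. Other scores rose with length too. In the other introns, −2 in deproteinized RNA averaged 0.402 under 80 nt and 0.454 at 500 nt or more. The branch motif A described below averaged 0.498 and 0.653 there. The part of the scaling in the length difference was not tested. Most rows also hold 1 intermediate score that recurs many times, and the percentage of nucleotides at it had a median of 24.6% in deproteinized RNA and 26.7% in vivo under 80 nt, against 25.3% and 32% at 250 to under 500 nt, and its part in the result was not tested.

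The shortest member was intron 3 of AT4G32470, a gene for a subunit of the cytochrome bc1 complex of the mitochondrial respiratory chain, with 50 nt (chromosome 4, 15670021 to 15670070, minus strand). It had 1 at −1 in both conditions, and 0.141 at −2 in deproteinized RNA and 0.102 in vivo. The next was the first intron of RPL5B, for a protein of the large ribosomal subunit, with 58 nt in the 5′ untranslated region and 0.316 at −2 in deproteinized RNA and 0.614 in vivo. At the other end were intron 2 of ABCG25, for an exporter of abscisic acid, with 3388 nt, and an unannotated intron of AT5G55896 with 4572 nt. Both long introns had 1 at −1 in both conditions, and their −2 scores were 0.895 and 0.843 in deproteinized RNA, against 0.565 and 0.406 in vivo.

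**Figure D2:**
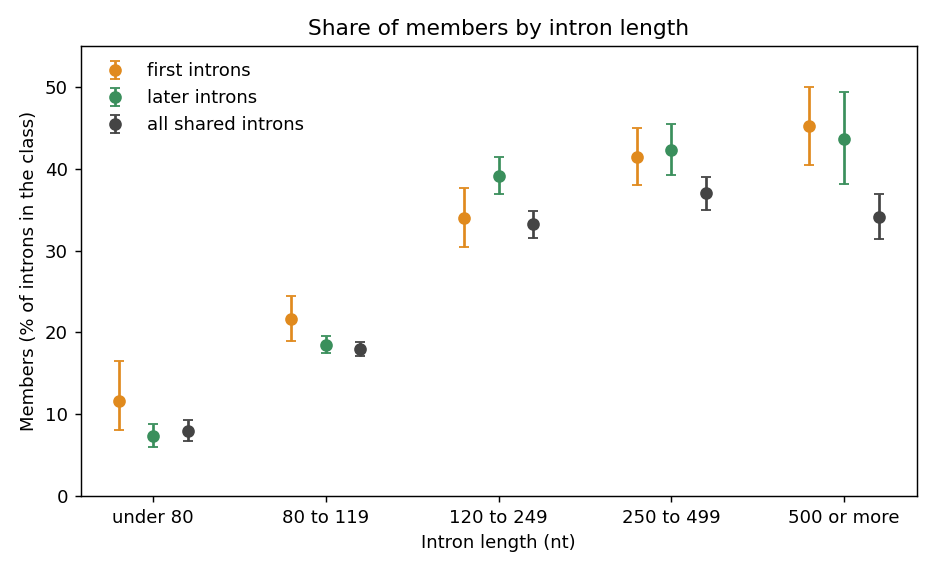
Share of introns that are members in 5 classes of intron length, for annotated first introns, annotated later introns and all shared introns; points are percentages and bars 95% Wilson intervals. In all 3 sets the share is lowest under 80 nt, and first and later introns of 250 nt or more lie close together.

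First introns of genes were more frequent among members, at 28.1% (26.6 to 29.7%) of annotated members against 20.5% (19.7 to 21.3%) of the other annotated introns. Within length classes the order varied. Under 80 nt, 11.6% of first introns (8.05 to 16.5%) and 7.35% of later introns (6.07 to 8.88%) were members, and at 80 to under 120 nt 21.6% (19.01 to 24.5%) and 18.5% (17.5 to 19.5%). At 120 to under 250 nt, 33.9% of first introns (30.4 to 37.6%) and 39.1% of later introns (36.9 to 41.4%) were members. At 250 to under 500 nt, these shares were 41.5% and 42.3%, and at 500 nt or more 45.2% and 43.7%. Last introns made up 22.5% of members and 23.9% of the others. Introns in the 5′ untranslated region made up 11.2% of members (10.2 to 12.3%) and 8.91% of the others (8.36 to 9.49%), and those in the 3′ untranslated region 1.70% (1.32 to 2.20%) and 2.91% (2.59 to 3.26%).

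The nucleotides at the 5′ss differed modestly. G stood at −1 in 80.4% of members (79.1 to 81.7%) and 73.8% of the others, and A at −2 in 65.2% (63.6 to 66.7%) and 60.2%. Read the other way, 25.4% of introns with G at −1 were members (24.6 to 26.2%), against 16.4% with A, 19.9% with C and 20.7% with U. Within the intron, members had A at +3 in 66.9% and at +4 in 55.3%, against 61.6% and 50.9% in the others. At +5 and +6, where U1 pairs with G and U, the groups were close: G at +5 stood in 47.05% of members (45.4 to 48.7%) and 48.1% of the others, and U at +6 in 48.3% and 48.6%.

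An AG directly before the GU, AGGU from −2 to +2, was present in 54.99% of members (53.4 to 56.6%) and 46.4% of the others (45.5 to 47.3%). The intron start GUAAGU, which can pair with U1 through its whole length, was about as frequent in both, at 7.81% (6.99 to 8.72%) and 8.26% (7.78 to 8.77%). The 2 features seldom occurred together. Only 88 of the shared introns had both, and 15 of these were members, 17.05% (10.6 to 26.2%). Of 7482 introns with AG before GU but not GUAAGU, 27.2% were members (26.2 to 28.2%). Of 1187 with GUAAGU and no AG before it, 23.3% were (20.9 to 25.7%), and of the 6878 with neither, 20.4% (19.4 to 21.3%).

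Introns with the starts typical of the minor spliceosome were members more often than the 23.8% of all shared introns. Of 104 shared introns that started with GUAUCC or AUAUCC, 47 were members, 45.2% (35.97 to 54.76%), and they lay in 44 genes. By start, 13 of 21 introns with AUAUCC were members, 61.9% (40.9 to 79.2%), and 34 of 83 with GUAUCC, 40.96% (31.01 to 51.71%). Their median length was 125.5 nt, against 105 nt for all shared introns. Of the 19 AUAUCC introns with a value at −1 in both conditions, 73.7% had at least 0.8 in deproteinized RNA and 89.5% in vivo, and 10 of the 13 members stood at 1 in both. None of the 4 in the third set of sequences above has AG before the first intron nucleotide, since AAA, UUG, GCC and UAC precede AUAUCC there. This class was singled out after its values were seen.

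Other unusual ends were members less often. Of 384 introns that started with GC, 44 were members, 11.5% (8.65 to 15.0%). Introns running AU to AC without AUAUCC had 5 members of 107, 4.67% (2.01 to 10.48%), although their median length was 404 nt. Of the 62 members that did not start with GU, the 4 with the lowest flanks were in WAT1, AT3G56130, AT1G73350 and SUT2. WAT1, for a vacuolar transporter needed for secondary walls, had −1 at 0.957 in deproteinized RNA and 1 in vivo at intron 3, which starts with GC, and its −2 had 0 and 0.235. SUT2, for a sucrose transporter, had −1 at 0.959 in deproteinized RNA and 0.839 in vivo at its GC intron 13. The intron of AT3G56130, for a biotin or lipoyl domain protein, also started with GC and had 1 at −1 in both.

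The next exon nucleotide, −2, was more reactive in members, though most members did not carry the pattern there. Its mean score was 0.510 ± 0.313 in members (n = 3731) and 0.423 ± 0.266 in the others (n = 11923) in deproteinized RNA. In vivo it was 0.444 ± 0.304 in members (n = 3684) and 0.374 ± 0.256 in the others (n = 11154). The differences of the means were 0.087 and 0.070, well inside the SD over introns. At least 0.8 was reached by 23.5% of members and 12.1% of the others in deproteinized RNA, beside 14.8% of all shared introns, and by 17.7% and 9.44% in vivo, beside 11.5% of all. In both conditions together, 298 of 3683 members with values, 8.09% (7.25 to 9.02%), and 303 of 11145 others, 2.72% (2.43 to 3.04%), were at or above 0.8, beside the 4.05% of all. A share of 67.1% of members was below 0.8 at −2 in both conditions, against 81.5% of the others. The lower tail was alike, with 6.54% of members (5.79 to 7.39%) and 6.32% of the others (5.88 to 6.78%) at 0.2 or less in both.

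The higher score at −2 was seen whichever base stood there. In deproteinized RNA the mean at an A was 0.508 in members and 0.423 in the others, and at a G it was 0.520 and 0.411. In vivo the mean was 0.444 in members and 0.376 in the others at an A, and 0.475 and 0.370 at a G. It was also seen in every length class. Under 80 nt the mean in deproteinized RNA was 0.490 in members and 0.402 in the others, and at 500 nt or more it was 0.573 and 0.454. Introns reactive at −1 in 1 condition lay between: −2 averaged 0.454 in deproteinized RNA in those reactive at −1 there only, and 0.404 in those reactive in neither. In vivo it averaged 0.426 in those reactive at −1 in vivo only, and 0.359 in those reactive in neither.

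The 8 introns printed in the first set were picked for scores of 1 at −1 and −2 and for the lowest flanks. Their low flanks therefore follow from that choice and are given as a description. Exactly 1 at −1 and −2 in both conditions was found in 135 members, 3.62%. The first, intron 3 of GRF6, for a 14-3-3 protein that binds phosphorylated proteins, lies at 3284467 to 3284665 on the minus strand of chromosome 5. Its exon flank from −20 to −3 averaged 0.151 and its intron flank from +1 to +20 averaged 0.124 in deproteinized RNA, and these were 0.245 and 0.175 in vivo. Over all members with flank values the mean of both flanks and conditions had a median of 0.350, and in GRF6 it was 0.174. In UBQ10, for a polyubiquitin, −3 was at 1 as well in both conditions. That intron lies inside the repeated ubiquitin coding units, so reads from near-identical repeats could be shared. Both its values and its use as a 5′ss are therefore uncertain.

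The other introns of that set belong to genes of metabolism and light response. AAE3 encodes an oxalyl-CoA synthetase, and at its intron 4 the −3 score was 0.127 in deproteinized RNA and 0.078 in vivo, next to 1 at −2 and −1. In intron 6 of ATCS, for a citrate synthase, +1 was 0.462 in deproteinized RNA and 0.333 in vivo. FSD1, for an iron superoxide dismutase, RPT2, for a signalling protein of phototropism, and AT1G04970, for a lipid-binding protein, had the pattern at their first intron, which lies in the 5′ untranslated region. RPT2 had 0.391 at −3 in deproteinized RNA and 0.376 in vivo. The single intron of AT2G03690, for a protein of ubiquinone synthesis, had AGA before its GU, without the common G at −1, and −3 was 0.224 in deproteinized RNA and 0.20 in vivo.

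In the second set, −1 was high and −2 was at 0. Intron 1 of IAA16, for a repressor of auxin responses, runs on the minus strand of chromosome 3 at 1289764 to 1290212. It had 1 at −1 and 0 at −2 in both conditions, with 0.443 at −3 in deproteinized RNA and 0.189 in vivo, and 0.226 and 0.083 at +1. ATG8F, for a ubiquitin-like protein of autophagosomes, had the same at its 91 nt intron 3, with 0.055 at −3 in deproteinized RNA and 0.238 in vivo, and 0.149 and 0.607 at +1. AT4G15610 had it at its first intron of 740 nt, with 0.417 and 0.203 at −3, and 0.304 and 0.652 at +1. IAA16 and ATG8F have A at −1 and AT4G15610 has U, and none of the 3 has the common G there.

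Beyond −1 and −2 the profiles of members and others ran close together. From −20 to −3 the mean score was 0.353 ± 0.078 in members and 0.344 ± 0.081 in the others in deproteinized RNA, and 0.351 ± 0.090 and 0.340 ± 0.093 in vivo. From +1 to +20 it was 0.361 ± 0.077 in members and 0.346 ± 0.079 in the others in deproteinized RNA, and 0.347 ± 0.088 and 0.332 ± 0.088 in vivo. The differences of 0.009 to 0.015 are small beside the SD over introns. Members were higher at 92 of 99 positions from −50 to +50 without −1 in deproteinized RNA and at 92 of 99 in vivo, with a median difference of 0.009 and 0.010. After −2, the largest difference was at +2, the U of the GU, in deproteinized RNA, with a mean of 0.416 in members and 0.371 in the others. In vivo +2 and +3 were about equally raised, and +3 averaged 0.364 in members and 0.333 in the others. A distant exon position, −40, differed by less than +2 in deproteinized RNA, with 0.407 in members and 0.377 in the others. In vivo −40 differed by about as much as +2 and +3, with 0.382 and 0.352. At −3, next to −2 on the other side, the means were 0.380 and 0.362 in deproteinized RNA, and 0.338 and 0.329 in vivo.

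**Figure D3:**
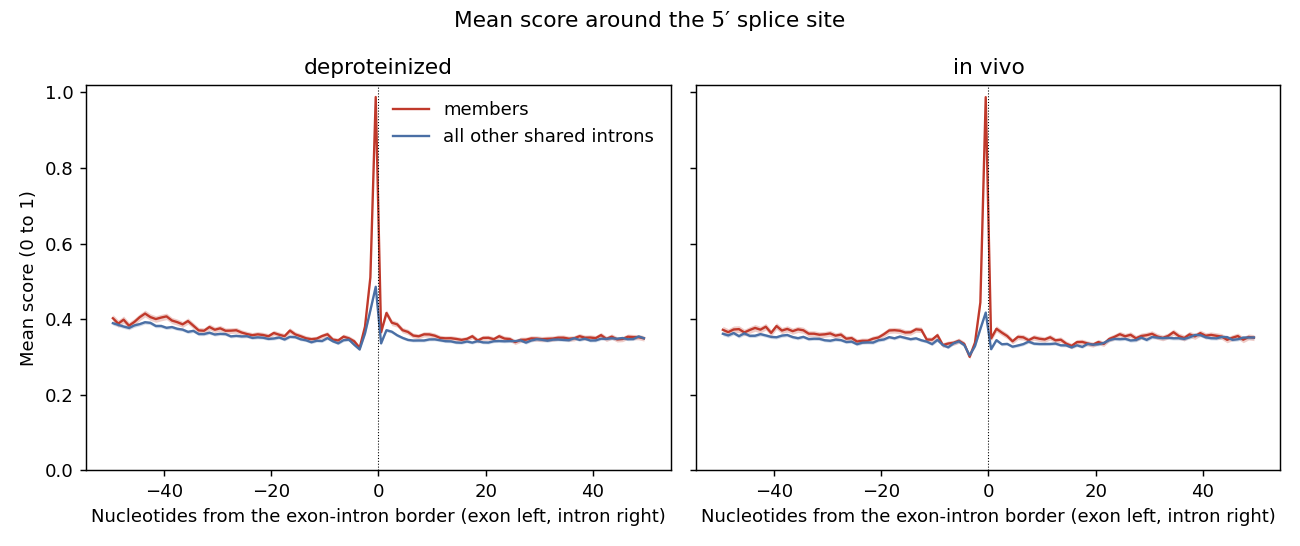
Mean SHAPE score from 50 nt before to 50 nt after the exon-intron border in members and all other shared introns, left deproteinized and right in vivo; shaded bands are approximate 95% intervals of the mean over introns. The height of the members at −1 follows from the rule, while at −2 they average 0.510 against 0.423 (left) and 0.444 against 0.374 (right), and elsewhere the lines nearly meet.

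Sequence alone did not predict these nucleotides to be more open in members. In folds of 100 nt around the 5′ss at 37 °C without reactivities, the mean unpaired probability at −1 was 0.243 ± 0.312 in members (n = 3726) and 0.279 ± 0.327 in the others (n = 11909). At −2 it was 0.404 ± 0.356 and 0.420 ± 0.362. The mean over both positions, 0.324 in members and 0.349 in the others, was lower in members in each of the length classes. Among introns with G at −1 and 80 to under 120 nt it was 0.287 and 0.301. The percentage of GC in the 50 exon nucleotides was 45.01 ± 6.39 in members and 44.15 ± 6.53 in the others.

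At the 3′ end of the intron, the adenosine of a branch motif was more reactive in members. The motif searched was CTAAC or CTAAT or CTGAC or CTGAT with the A 15 to 50 nt before the intron end, on the transcribed strand only, and it was found in 992 members, 26.6% (25.2 to 28.1%), and 2799 others, 23.5% (22.8 to 24.3%), beside 24.2% of all shared introns with a sequence. Where several matched, the one nearest the intron end was taken. A match is a sequence description and not a mapped branch point. In deproteinized RNA the A had a median score of 0.784 in 991 members and 0.516 in 2786 others, with means of 0.622 ± 0.405 and 0.549 ± 0.393. In vivo the median was 0.777 in 956 members and 0.488 in 2673 others, with means of 0.625 ± 0.394 and 0.539 ± 0.386. A score of at least 0.8 was given for 49.5% of members and 38.6% of the others in deproteinized RNA, beside 41.5% of all with the motif, and for 48.95% and 37.1% in vivo, beside 40.2% of all. In both conditions it was given for 316 of 955 members, 33.1% (30.2 to 36.1%), and 578 of 2666 others, 21.7% (20.2 to 23.3%), beside 24.7% of all. Reactivity in 1 condition only was equally frequent, at 16.6% of members and 16.7% of the others in deproteinized RNA. The higher branch A was not particular to members. Introns reactive at −1 in vivo only averaged 0.586 in deproteinized RNA and 0.606 in vivo. Those reactive at −1 in deproteinized RNA only averaged 0.572 and 0.531, and those reactive in neither 0.530 and 0.517.

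The size of this difference varied with intron length. At 80 to under 120 nt the branch A averaged 0.591 in members and 0.531 in the others in deproteinized RNA, and 0.610 and 0.513 in vivo. At 120 to under 250 nt it averaged 0.659 and 0.576 in deproteinized RNA, and 0.628 and 0.588 in vivo. At 500 nt or more it averaged 0.660 and 0.653 in deproteinized RNA, and 0.692 and 0.664 in vivo. The standard errors over introns of these last differences, 0.047 in deproteinized RNA and 0.045 in vivo, were larger than the differences. Across all shared introns with the motif, −1 and the branch A were only weakly related, with r = 0.08 over 3773 introns in deproteinized RNA and r = 0.12 over 3459 in vivo, values that share library, row and scaling.

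**Figure D4:**
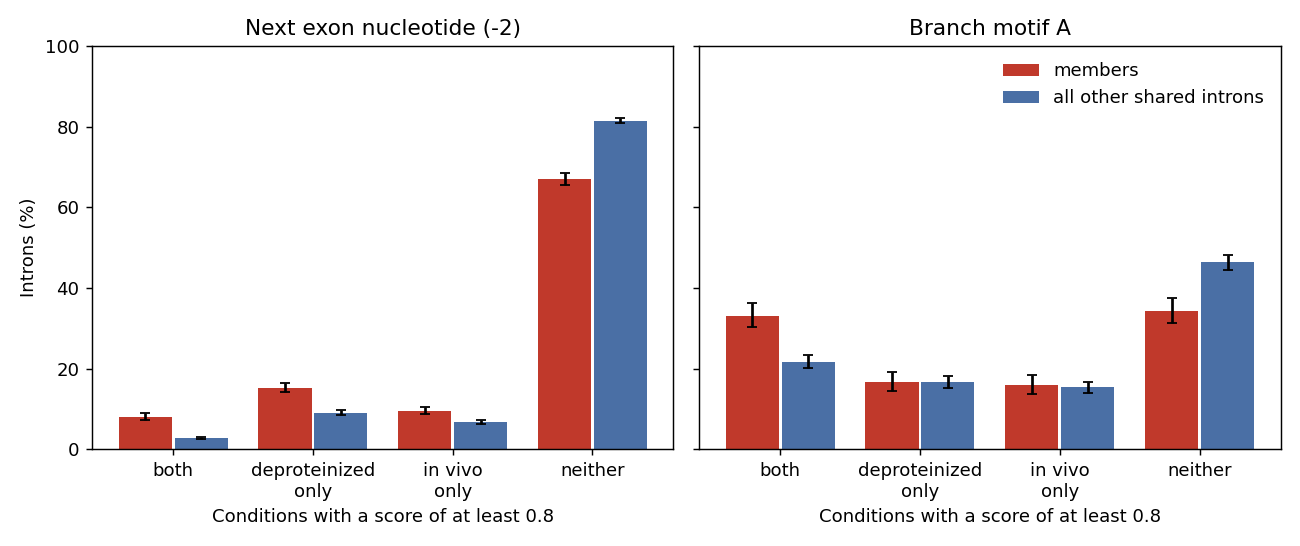
Percentage of introns with a score of at least 0.8 in both conditions, in deproteinized RNA only, in vivo only or in neither, at −2 (left) and at the branch motif A (right), for members and all other shared introns; bars are 95% Wilson intervals. At both nucleotides the class reactive in both conditions is larger in members, with 8.09% against 2.72% and 33.1% against 21.7%.

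The rest of the 3′ end, measured in introns of at least 60 nt, differed little. Over the last 50 intron nucleotides without the AG, the mean was 0.391 ± 0.062 in members and 0.374 ± 0.067 in the others in deproteinized RNA, and 0.377 ± 0.074 and 0.367 ± 0.076 in vivo. The widest gaps in deproteinized RNA lay 27 to 30 nt before the intron end, with 0.418 in members and 0.387 in the others at 30 nt. From −7 to −4, shortly before the AG, the means were 0.356 and 0.347 in deproteinized RNA, and 0.362 and 0.354 in vivo. Within this stretch only −5 and −4 were low, at 0.327 and 0.310 in members in deproteinized RNA. At −7 and −6 members had 0.393 and 0.395 there. In the first 50 nucleotides of the next exon the order was turned round, with 0.430 in members and 0.437 in the others in deproteinized RNA, and 0.409 and 0.415 in vivo.

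**Figure D5:**
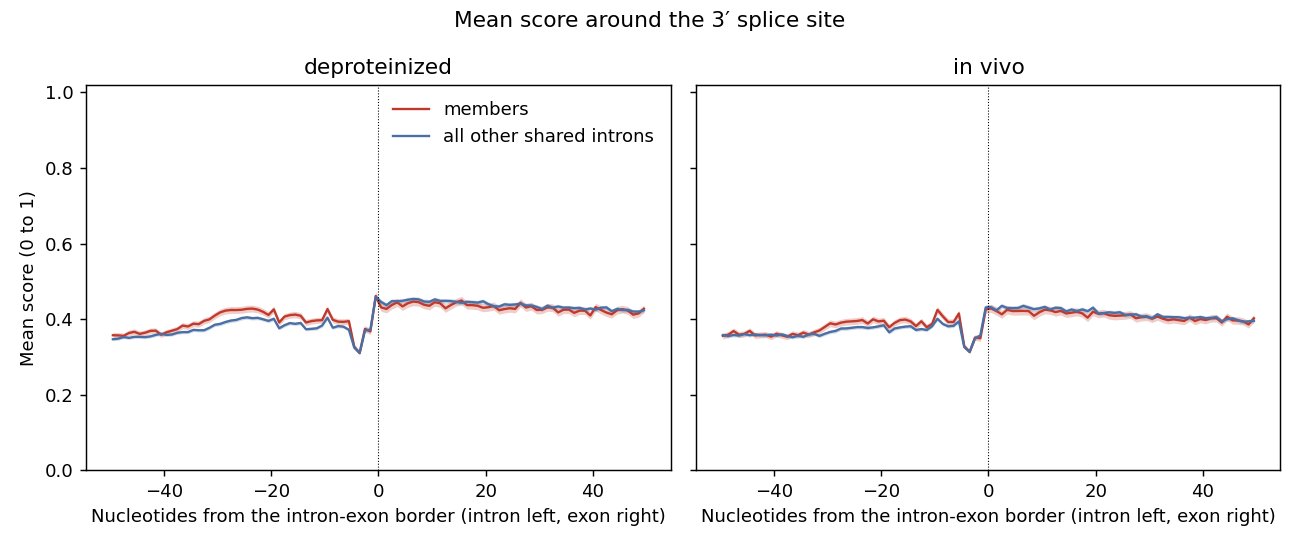
Mean SHAPE score from 50 nt before to 50 nt after the intron-exon border in members and all other shared introns, left deproteinized and right in vivo; shaded bands are approximate 95% intervals of the mean over introns. The members lie slightly above the others over the last part of the intron and slightly below them in the exon, where the 50 nt average 0.430 against 0.437 (left) and 0.409 against 0.415 (right).

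Members had fewer nucleotides with no value than the other introns in both conditions, while the recurring score was about as frequent. The recurring intermediate score made up 24.1% of a row in members and 25.7% in the others in deproteinized RNA, and 30.6% and 30.4% in vivo. Nucleotides with no value made up 0.252% in members and 0.540% in the others in deproteinized RNA, and 4.37% and 6.39% in vivo. The rule required a value at −1 in both conditions, and the others include 807 introns that lack it. The difference in missing values is therefore not independent of the choice of members. The part of missing values and of the recurring score in the results was not tested.

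Members were spread over many genes. A single member 5′ss was found in 1321 genes, 722 genes had 2 or more, and 40 genes had 5 or more. The most were in VHA-A, for the catalytic subunit A of the vacuolar proton pump, with 9 of 18 5′ss. GGH2 and HOL1, described below, had 7 of 9 each. AT5G44090, for a calcium-binding EF-hand protein, had 8 of 15, and MDAR6, for a monodehydroascorbate reductase of the ascorbate cycle, had 8 of 18. In VHA-A the members ran from 80 to 187 nt, and −2 covered the whole scale in both conditions, with medians of 0.680 in deproteinized RNA and 0.542 in vivo. In AT5G44090 all 10 member introns were at 1 in deproteinized RNA, and the lowest in vivo was 0.835. The introns of that gene outside the class had a median at −1 of 0.277 in deproteinized RNA and 0.327 in vivo, so 1 gene held introns inside and outside the class. Each intron is scaled by itself, so these scores do not compare the reactivity of 1 intron with that of another.

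Among the 476 genes with at least 8 shared introns, the percentage of members had a median of 22.2% (quartiles 11.1 and 37.5%). There were 67 such genes with none and 47 with at least 50%. The highest share was 81.8%, 9 of 11 introns, in both GGH2, for a gamma-glutamyl hydrolase that trims folate tails, and HOL1, for a methyltransferase that makes methyl halides. AT5G28050, for a deaminase of the cytidine family, had 6 of 8, all 6 at 1 in both conditions. BCA4, for a beta carbonic anhydrase, had 8 of 11, again all at 1 in both. AT2G39950 had 7 of 10, but these lay on only 3 5′ss. In HOL1 the −2 score of members ran from 0.147 to 0.739 in deproteinized RNA and from 0.004 to 1 in vivo.

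Genes of splicing and RNA binding had shares of members at or below the 23.8% of all shared introns, with wide intervals. SR proteins, which bind exons and recruit the spliceosome, had 13 members of 74 shared introns, 17.6% (10.6 to 27.8%), from 7 of 12 genes. RS2Z33 had 4 of 9 and SC35 had 0 of 9. In the genes for U2AF35, SF1 and a PRP8 protein, which act at the branch site, the 3′ss and the core of the spliceosome, 0 of 9 introns were members, a count that leaves a share of up to 29.9% within its 95% interval. GRP7, CCR1, PTB1 and PTB2, RNA-binding proteins that regulate their own splicing, had 2 of 17. Proteins with RNA-binding or RNA recognition in their product name had 41 of 237, 17.3% (13.02 to 22.63%). Helicases, listed by product name and not limited to splicing or RNA binding, had 11 of 83, 13.3% (7.56 to 22.2%).

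In the larger lists by product name the share ran between 13.3% and 29.5%. Ribosomal protein genes had the largest share of those counted by product name, with 141 members of 478, 29.5% (25.6 to 33.7%), and a median length of 116 nt. Transcription factors had 27.7% of 112, ubiquitin-related proteins 26.5% of 298, zinc finger proteins 25.5% of 271, transporters 24.5% of 376, kinases 21.3% of 815, and chlorophyll or photosystem proteins 18.8% (19 introns). Clock genes had 1 of 16, in CCA1, while LHY had 0 of 9. Photoreceptor genes had 4 of 20, of which PHYA held 2 of 10. Actin and EF1A genes had 4 of 18. The EF1A copies are nearly identical, so their values are uncertain. Small RNA and cellulose synthase genes had 0 of 2 each.

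Of the 3 genes that the study used to build splicing constructs, only AT3G08930, for an LMBR1-like membrane protein, had shared introns. Of its 8 introns, introns 2 and 11 were members, with 1 at −1 in both conditions. At intron 2 the −2 score was 0.288 in deproteinized RNA and 0.058 in vivo, and at intron 11 it was 1 and 0.465. Intron 13 passed in deproteinized RNA only, with 0.854 against 0.446 in vivo. Intron 6 had the pattern at −2 and not at −1, with 1 at −2 in both conditions, and 0.093 at −1 in deproteinized RNA and 0.714 in vivo.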

How the data were processed

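Nuclear RNA of Arabidopsis Col-0 seedlings was profiled in 4 library entries, (+)SHAPE and (−)SHAPE for the deproteinized and the in vivo condition. The authors trimmed reads with cutadapt 1.14, checked them with FastQC 0.11.5 and mapped them with HISAT2 2.1.0 to TAIR10 per the submitters' processing notes, merged the biological replicates and calculated SHAPE reactivities. The deposited values are a score for each nucleotide of an intron and 50 exon nucleotides on each side, scaled within each row between 0 and 1. They have no physical unit, and read depth is unknown, so no counting error of a single score can be given. The poly(A) tables were not used.

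The tables held 34255 introns in the deproteinized and 24782 in the in vivo condition, and the 15678 in both were used. Rows were placed on RefSeq's TAIR10.1, with the coordinates of TAIR10, and 98.3% of members with a sequence ran GT to AG. Organelle introns got no sequence. Unpaired probabilities came from ViennaRNA 2.7.2 (37 °C). Scripts used Python 3.11.15, pandas 2.3.3 and NumPy 2.4.6, and were tested on simulated data. With 1 merged profile per condition no test was run. Means ± SD over introns, medians and shares with 95% Wilson intervals are given. Members, gene lists and naming rules were chosen with earlier results of these data known. Named introns have −1 and −2 at 1 and the lowest flanks, the lowest −2, extreme length, no GT start or a value next to the threshold; named genes have the most members or, with at least 8 shared introns, the largest share. Alternatives changed the threshold, the rows compared, the treatment of zeros and of the recurring score, the flanks, the motif window and the folds.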

Additional observations from a re-analysis of the deposited data

How the results depend on the processing

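Values below are differences of members minus the other introns unless another quantity is named. Under the alternatives, 190 such differences were computed and 188 kept the sign of the value reported. Some of the kept signs belong to differences smaller than their standard error over introns, as given below for the branch A. Both exceptions in this count concern first introns. Their percentage was 4.28 points lower in members at 120 to under 250 nt (-4.28) and 0.85 points lower at 250 to under 500 nt (-0.846). It was 7.15 points higher under 80 nt, 1.503 at 500 nt or more and 2.33 at 80 to under 120 nt. Length classes within subsets were not in this count, and some had the other sign. In annotated introns of 500 nt or more, the branch A averaged 0.656 in members and 0.691 in the others in deproteinized RNA, and 0.704 and 0.729 in vivo. At that length in deproteinized RNA it averaged 0.610 and 0.766 in first introns, but 0.722 and 0.577 in later introns. With the rule at 0.6 in place of 0.8, 64.4% of introns that passed in deproteinized RNA passed in vivo, the median length differed by 36 nt, first introns by 5.58 points and the intron flank in deproteinized RNA by 0.012. With the rule at 1 these shares and lengths were 57.6%, 72 nt and 9.75 points, and AG before GU differed by 10.6 points. Taking 1 intron per gene, −2 in deproteinized RNA differed by 0.104, the last 50 intron nucleotides by 0.022 and −7 to −4 by 0.017 there, the branch A in vivo by 0.148, the unpaired probability by -0.0148, the median length by 75 nt and first introns by 16.3 points. With G at −1 only, AG before GU differed by 5.56 points.

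Against introns below 0.8 in both conditions, −2 differed by 0.106 in deproteinized RNA and 0.086 in vivo, the intron flank by 0.020 and the last 50 intron nucleotides by 0.021 in deproteinized RNA, G at −1 by 8.83 points and AG before GU by 11.6 points. Among introns of 80 to under 120 nt, −2 differed by 0.062 in deproteinized RNA and 0.052 in vivo, the exon flank by 0.0030 and 0.0070, and, in deproteinized RNA, the intron flank by 0.0091, the last 50 nucleotides by 0.013 and −7 to −4 by 0.0042; the unpaired probability differed by -0.0149. Scores of 0 as missing gave 0.099 and 0.083 at −2, and the recurring score as missing gave 0.018 for the intron flank in vivo. Medians in place of means gave 0.108 at −2 in deproteinized RNA, and 0.268 in deproteinized RNA and 0.289 in vivo at the branch A. Flanks of 10 nt gave 0.022 in deproteinized RNA and 0.020 in vivo for the intron and 0.0049 in vivo for the exon. Folds of 50 nt gave -0.0365.

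By length class, which was added after seeing the data, the branch A differed by 0.010 under 80 nt, 0.021 at 250 to under 500 nt and 0.0072 at 500 nt or more in deproteinized RNA, and by 0.040 at 120 to under 250 nt, 0.024 at 250 to under 500 nt and 0.027 at 500 nt or more in vivo. The standard errors over introns in deproteinized RNA were 0.070, 0.035 and 0.047 in the same order, each larger than its difference. In vivo they were 0.030, 0.035 and 0.045, and only the difference at 120 to under 250 nt exceeded its error. The cause of the shifts under the alternatives was not tested. No paired analysis was possible because the scores used here are of merged biological replicates, 1 profile per condition. Read depth is not given, so it is not known which scores rest on few reads.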
